A study of Mus musculus with 24 samples.

Results

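Expression of the suppressor of cytokine signalling (SOCS) genes and of 2 PIM kinase genes was described in mouse blood progenitors that carry or lack an activated Flt3 receptor. The 10 genes are Cish, Socs1, Socs2, Socs3, Socs4, Socs5, Socs6, Socs7, Pim1 and Pim2. They were taken by symbol from 23991 gene symbols, and all 10 were found. RNA was sequenced from LSK cells (lineage-negative, Sca1+, cKit+ stem and multipotent progenitor cells) and from granulocyte-macrophage progenitors (GMP), both sorted from bone marrow of C57BL/6 mice. There are 8 groups of 3 libraries, 4 genotypes for each population. WT is wild type, and ITD carries an internal tandem duplication of Flt3. IRE1_KO has both Ern1 alleles floxed together with Vav-Cre, and IRE1_KO_ITD carries all of these alleles. Ern1 encodes the endoplasmic reticulum stress sensor IRE1α, and the Vav promoter drives the Cre recombinase in blood cells. No group carries Vav-Cre without floxed Ern1, and no drug treatment is named, and the age of the mice and whether Flt3-ITD is on 1 allele or both were not found in the labels. The labels do not say that replicates came from separate mice, so p-values measure the spread between these libraries, which may be partly technical. By Xist and Y-linked genes, the groups other than ITD held libraries of both sexes, so their replicates are not all repeats of 1 mouse.

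Cytokine receptors signal through Janus kinases, which phosphorylate STAT transcription factors, and the Flt3 duplication activates STAT5 without ligand. Cish and Socs1 to Socs3 are classical feedback inhibitors: STATs switch the genes on, and the proteins bind receptors or kinases through an SH2 domain and recruit a ubiquitin ligase through the SOCS box. Socs4 to Socs7 have the same domains and are better known for roles at growth factor receptors and in other pathways. Pim1, Pim2 and Pim3 encode serine/threonine kinases that are active as soon as they are made, so that their mRNA and protein levels set their activity, and they promote survival and translation. STAT5 activity itself was not measured here, so the 10 genes are not called STAT5 targets as a set below.

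Promoter sequence was looked up because the genes that differed most with Flt3-ITD include Cish, a textbook STAT5 target. The 300-base windows of RefSeq (GRCm38.p6, 250 bases before to 50 after the start) covered 6 of the 10 genes, but not Socs2, Socs5, Socs6 or Socs7. They were searched for TTCNNNGAA, the core STAT motif, which reads the same on both strands. Cish held 2 copies, TTCCTGGAA at position 1 and TTCTTGGAA at position 12, counted from 1 at the RefSeq start, and Socs3 held 1, TTCTTAGAA, 154 bases before its start. Socs1, Socs4, Pim1 (2 windows) and Pim2 held none. Of 32851 windows, 8.30% held the motif and 0.457% held it at least 2 times. The same ends with 4 free bases between them, also searched on both strands, were in 6.95% of windows and in none of these genes. Shown here are Cish and Socs3, with the motif in capitals, and Pim2, which rose in ITD LSK and has no copy in the window, each from 250 bases before to 30 after the start.
Cish, chr9:107296409-107296688, plus strand: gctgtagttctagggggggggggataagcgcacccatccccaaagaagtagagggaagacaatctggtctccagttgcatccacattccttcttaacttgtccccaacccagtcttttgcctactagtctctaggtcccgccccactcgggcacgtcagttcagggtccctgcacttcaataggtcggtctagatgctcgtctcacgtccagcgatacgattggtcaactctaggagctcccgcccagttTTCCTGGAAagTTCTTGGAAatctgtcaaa
Socs3, chr11:117969337-117969616, minus strand: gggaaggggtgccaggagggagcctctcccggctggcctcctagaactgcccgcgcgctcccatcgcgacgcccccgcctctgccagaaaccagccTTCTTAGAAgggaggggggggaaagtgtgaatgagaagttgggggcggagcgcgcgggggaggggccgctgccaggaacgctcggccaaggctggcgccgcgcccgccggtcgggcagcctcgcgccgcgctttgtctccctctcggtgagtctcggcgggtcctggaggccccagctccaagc
Pim2, chrX:7878056-7878335, plus strand: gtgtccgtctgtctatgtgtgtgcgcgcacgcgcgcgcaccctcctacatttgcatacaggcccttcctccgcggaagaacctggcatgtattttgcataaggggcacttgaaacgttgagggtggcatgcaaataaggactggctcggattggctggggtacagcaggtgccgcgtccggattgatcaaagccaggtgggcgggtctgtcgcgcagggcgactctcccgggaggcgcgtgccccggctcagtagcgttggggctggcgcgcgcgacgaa
A match describes letters and shows neither binding nor a cause. GENCODE places the start of Cish (chr9:107296026-107302784) upstream of the RefSeq start, so both copies lie inside the GENCODE gene. The same holds for Socs3 (chr11:117966079-117970047, minus strand), whose copy at chr11:117969512-117969520 also lies inside the GENCODE gene. GENCODE vM21 (GRCm38) places Socs1 at chr16:10782240-10785536, Socs2 at chr10:95385362-95417180, Socs5 at chr17:87107679-87137839 and Pim1 at chr17:29490753-29496112. Exons of Cish overlap Gm17040 and Gm17041 on the opposite strand, and exons of Pim1 overlap the antisense transcript Gm26885. Whether reads were counted by strand is not stated, so reads of these pairs cannot be told apart.

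Values are FPKM, fragments scaled by transcript length and library size, which lets levels of different genes be set side by side. FPKM summed to 510361 to 673177 per library, and relative depth, read from low values, ran from 0.923 to 1.28 times that of WT LSK replicate 1. Summed markers of the sorted populations separated them: GMP markers reached 1067 to 3469 FPKM in LSK and 18930 to 31740 in GMP. Markers of other cells were not even across genotypes. The 8 erythroid and megakaryocyte markers summed to 358 to 770 FPKM in WT LSK and 25.3 to 130 in ITD LSK, the 8 late neutrophil markers to 4756 to 9654 and 460 to 2337, and the 8 B cell markers to 134 to 261 and 41.5 to 79.5, with Pax5 at 0 in ITD LSK. The 8 monocyte and dendritic markers summed to 137 to 253 FPKM in WT LSK and 391 to 2732 in ITD LSK. The 6 basophil and mast cell markers summed to 22.9 to 48.4 and 53.1 to 59.4 FPKM, and the 6 T and NK markers found to 279 to 306 and 345 to 459. Only 1 of the T and NK markers had a mean of at least 1 FPKM in these groups, so that gene makes up nearly the whole sum. Cd3e stood at 0.276 and 0.127 FPKM. The part of other cells in the results was not tested. Ern1 was higher, not lower, in libraries labelled with the floxed allele (7.62 and 11.8 FPKM against 4.34 and 6.28 in LSK, and 20.6 and 29.4 against 9.06 and 13.9 in GMP), but FPKM of a whole gene cannot tell deleted from remaining exons. Ern1 is thus no check of the deletion, and genotype names here are those of the labels. All 6 ITD libraries were female by Xist and Y-linked genes, and WT was 1 female and 2 male in each population. The IRE1_KO LSK columns alone carry a 1ng tag, which cannot be told apart from what is compared in any comparison that uses this group. The ITD library numbered 1 stood apart in both populations: in LSK its mean absolute log2 difference from the other ITD libraries was 0.349 and 0.356, against 0.196 between those, and in GMP 0.461 and 0.394 against 0.247. ITD GMP replicate 1 was nearer to IRE1_KO_ITD GMP replicates 3 (0.299) and 2 (0.373) than to either library of its own group, which bears on every value of ITD GMP given here.

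WT levels differed widely among the genes and between the populations. In WT LSK, Socs3 was the most abundant SOCS gene at 34.99 ± 17.9 FPKM (SD, n = 3), followed by Socs2 at 15.6 ± 2.72, Cish at 14.6 ± 3.86 and Socs6 at 7.46 ± 0.430. Socs4 stood at 3.32 ± 0.393, Socs5 at 3.15 ± 0.592, Socs1 at 1.47 ± 0.568 and Socs7 at 1.13 ± 0.221 FPKM. The libraries of Socs3, Socs2 and Cish overlapped, as did those of Socs4 and Socs5 and those of Socs1 and Socs7. In WT GMP the order of means was led by Socs6 at 9.90 ± 0.896 and Socs4 at 4.63 ± 0.833, and Socs2 was last at 0.626 ± 0.396 FPKM. There the libraries of Socs4 overlapped those of Socs3, and the libraries of Socs2 overlapped those of Socs5 and Socs7. Pim1 stood at 36.8 ± 16.2 and Pim2 at 18.2 ± 1.27 FPKM in WT LSK, and at 27.3 ± 21.5 and 3.05 ± 0.0598 in WT GMP. Fewer cells that express a gene and less RNA per cell cannot be told apart in these bulk samples.

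Between the sorted populations of WT mice, Socs2 was the member with the largest difference, lower in GMP by a log2 fold change of -3.37 ± 0.28 (SE, limma adjusted p = 1.23e-08). Log2 fold changes are of FPKM + 1, which understates changes of low genes. Socs3 (-2.74 ± 0.64), Cish (-2.57 ± 0.41), Pim2 (-2.25 ± 0.35) and Socs5 (-1.31 ± 0.18) followed, each with a limma adjusted p of at most 0.00153. Socs4 and Socs6 were called higher, by 0.38 ± 0.15 and 0.36 ± 0.12 (limma adjusted p = 0.0479 and 0.0203). Of the 10 members 7 were called, where 50.3% of 12348 genes were. The median over the members was -0.965, against -0.113 over all genes. The calls of Socs4 and Socs6 were lost without WT LSK replicate 1 or 2 or without WT GMP replicate 2, that of Socs4 also without WT GMP replicate 3 and that of Socs6 without WT GMP replicate 1, with adjusted p up to 0.176 and 0.128 over all settings, and with the replicate block (0.0601 and 0.0515).

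In the other genotypes the same 5 genes were lower in GMP each time. In ITD these were the 5 members called, with 40.5% of genes called and 26.8% called lower. In IRE1_KO, Socs1 (-1.54 ± 0.30) and Pim1 (-1.28 ± 0.51) joined them, giving 7 members, with 50.8% of genes called and 38.5% lower. In IRE1_KO_ITD, Socs1 (-1.41 ± 0.30) did, giving 6, with 40.7% called and 26.5% lower. Pim1 in IRE1_KO lost its call without IRE1_KO GMP replicate 1 or 2 or IRE1_KO LSK replicate 2 or 3 (adjusted p up to 0.206). In IRE1_KO the 1ng tag is on the LSK libraries only, so tag and population cannot be told apart. Pim2 differed by -3.47 ± 0.35 in ITD and -4.57 ± 0.35 in IRE1_KO_ITD (limma adjusted p = 5.38e-07 and 1.23e-08). Without ITD LSK replicate 1 the value in ITD was -2.81, next to -2.85 for Socs3. The balance of all genes moved with the scaling: 1512 were called higher and 4759 lower in IRE1_KO, but 3328 and 2882 with quantile normalization, 1686 and 3315 in ITD but 2187 and 2424, 1754 and 3272 in IRE1_KO_ITD but 2211 and 2318, and 2341 and 3871 in WT but 3171 and 3034. The 5 genes kept their calls under it, while Pim1 lost its call in IRE1_KO, and Socs4 (0.58) and Socs7 (0.57) gained one there and Socs7 (0.36) in ITD.

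**Figure D1:**
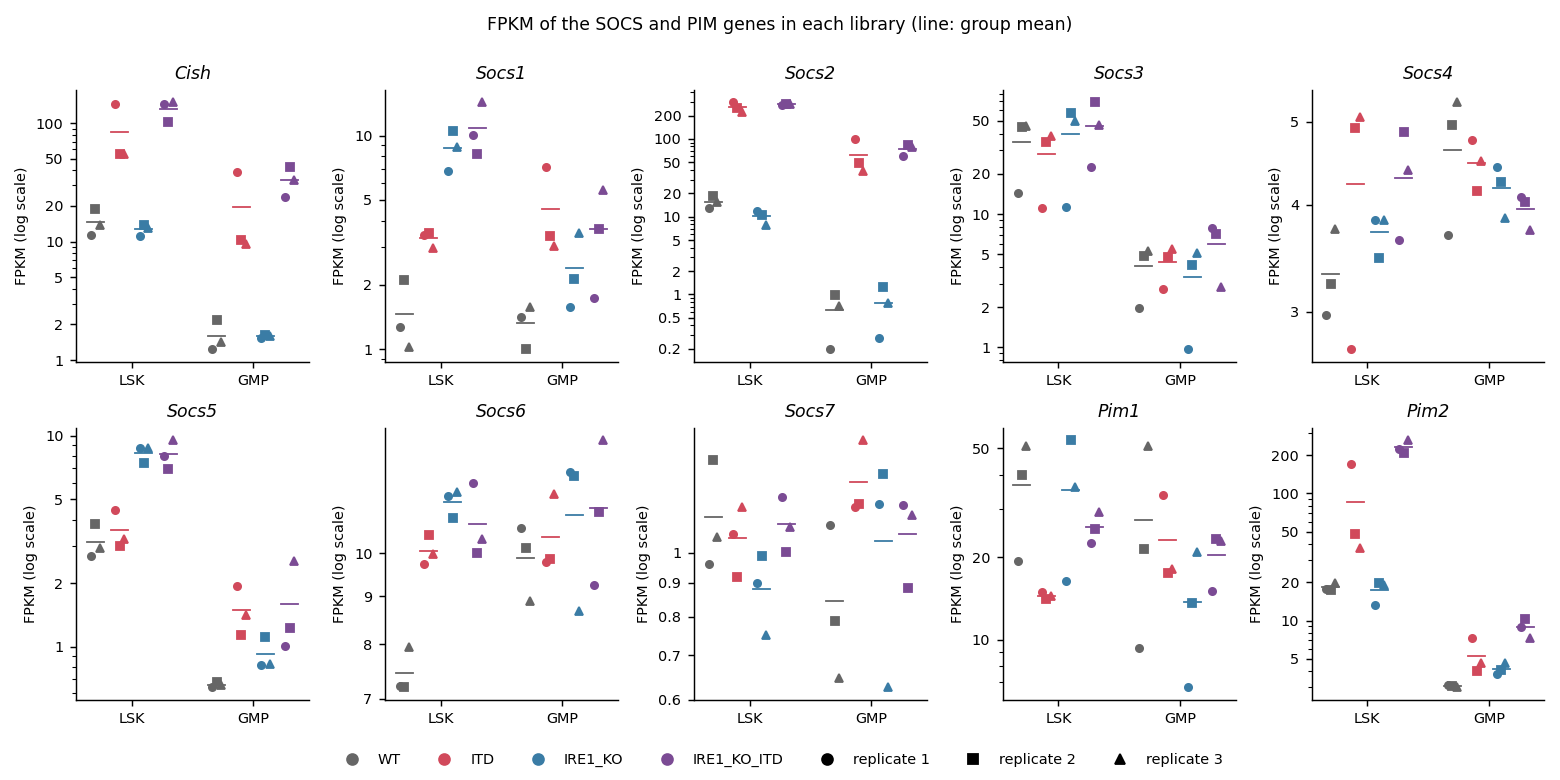
FPKM (log axis, a different range in each panel) of the 10 genes in each library, with LSK on the left and GMP on the right of a panel, colour for the genotype, symbol for the replicate number and a line at the group mean. Cish, Socs2 and Pim2 lay highest in the 2 LSK groups with Flt3-ITD, Socs5 in the 2 LSK groups with floxed Ern1, and Socs4, Socs6 and Socs7 varied little.

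ITD LSK were set against WT LSK to ask what the Flt3 duplication goes with in stem and multipotent progenitor cells. Socs2, Cish, Pim2, Socs1 and Socs6 rose, 5 of the 10 members, and none fell. Of 11955 genes tested, 22.2% were called and 14.9% were called higher. The median log2 fold change was 0.318 over the members and 0.084 over all genes.

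Socs2, an inhibitor of growth hormone and cytokine receptors, stood at 13.0, 18.4 and 15.5 FPKM in WT LSK replicates 1 to 3. In ITD LSK it stood at 294, 247 and 224 FPKM. Every ITD library lay more than 10-fold above every WT library, and the difference was 3.95 ± 0.16 (limma adjusted p = 7.66e-07). Cish, which blocks STAT5 docking sites on receptors, stood at 11.3, 18.9 and 13.8 FPKM in WT and at 144, 55.1 and 55.3 in ITD. The groups did not overlap, and replicate 1 was far above the other ITD libraries. Cish rose by 2.33 ± 0.33 (limma adjusted p = 0.00151), and by 1.87 without ITD LSK replicate 1.

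Pim2, a kinase that supports translation and survival, stood at 17.7, 17.3 and 19.7 FPKM in WT LSK. In ITD LSK it stood at 170, 47.6 and 37.1 FPKM. The groups did not overlap, and replicate 1 was again highest by over 3-fold. Pim2 rose by 1.83 ± 0.43 (limma adjusted p = 0.0137). Without ITD LSK replicate 1 the difference was 1.16 (adjusted p = 0.00262). The call was lost without WT LSK replicate 2 (0.0503), in a fit of the compared libraries alone (0.0590) and with sex as a covariate (0.0633), and adjusted p ran from 0.00262 to 0.0633 over all settings. Pim2 is on the X chromosome, and stood at 17.7 FPKM in the 1 female WT LSK library and at 17.3 and 19.7 in the 2 male ones. All ITD LSK libraries were female, so sex and Flt3-ITD cannot be fully told apart in this difference.

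Socs1, an inhibitor of Janus kinases, stood at 1.27, 2.11 and 1.03 FPKM in WT LSK and at 3.42, 3.52 and 2.98 in ITD LSK. The groups did not overlap, and the level stayed low beside the other feedback inhibitors. The difference was 0.82 ± 0.21 (limma adjusted p = 0.0214). It was lost without ITD LSK replicate 2, WT LSK replicate 1 or WT LSK replicate 3 (adjusted p = 0.0652, 0.0584 and 0.0625) and with sex as a covariate (0.101, the highest over all settings; the lowest was 0.0117). Socs6 stood at 7.22, 7.20 and 7.95 FPKM in WT and at 9.75, 10.5 and 9.995 in ITD (0.39 ± 0.09, limma adjusted p = 0.0126). Its call was lost without ITD LSK replicate 2 or WT LSK replicate 2 (adjusted p = 0.0510 and 0.0523, the lowest over all settings being 0.00962).

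Pim1 lay on the other side. It stood at 19.3, 40.0 and 51.2 FPKM in WT LSK and at 14.9, 14.0 and 14.4 in ITD LSK. Every ITD library was below every WT library, but WT varied by over 2-fold, and the difference of -1.19 ± 0.40 did not pass (limma adjusted p = 0.0538). It passed without WT LSK replicate 1 (0.0182), with the replicate block (0.0273), and under either other scaling (0.0407 by median ratios and 0.0424 by quantiles), and adjusted p ran from 0.00342 to 0.161 over all settings. Socs3 (-0.31 ± 0.70), Socs4 (0.25 ± 0.18), Socs5 (0.13 ± 0.16) and Socs7 (-0.05 ± 0.12) did not pass. Socs4 passed without ITD LSK replicate 1 (0.48, limma adjusted p = 0.0286, the highest over all settings being 0.709).

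In GMP the same comparison called 2 members, Socs2 and Cish, both higher, where 10.7% of 11249 genes were called and 7.37% called higher. These were 829 higher and 374 lower, but 616 and 624 with quantile normalization. Socs2 stood at 0.197, 0.976 and 0.706 FPKM in WT GMP and at 99.9, 48.5 and 38.6 in ITD GMP. The WT libraries were all under 1 FPKM and the ITD libraries all above 38. Socs2 thus entered the GMP fit, which asks for 1 FPKM in 3 libraries, only through the groups with Flt3-ITD. Socs2 rose by 5.19 ± 0.34 (limma adjusted p = 3.06e-05). Cish stood at 1.23, 2.18 and 1.42 FPKM in WT and at 38.6, 10.2 and 9.53 in ITD, again with replicate 1 highest. Cish rose by 2.70 ± 0.43 (limma adjusted p = 0.00439), and by 2.08 without ITD GMP replicate 1. The monocyte and dendritic markers summed to 307 to 358 FPKM in WT GMP and 1330 to 2216 in ITD GMP, and the late neutrophil markers to 41810 to 61670 and 2335 to 92940. GMP markers summed to 30240 to 31740 and 18930 to 22630, erythroid and megakaryocyte markers to at most 533 and 84.2, and B cell markers to 72.7 to 233 and 47.2 to 56.7. Basophil and mast cell markers summed to 242 to 456 and 110 to 169, and T and NK markers to 1110 to 1302 and 449 to 654. Again only 1 of the T and NK markers had a mean of at least 1 FPKM, and Cd3e stood at 0.0342 and 0.00841. The part of other cells in the results was not tested.

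Other members missed the threshold narrowly in GMP. Socs1 stood at 1.41, 0.998 and 1.58 FPKM in WT GMP and at 7.09, 3.38 and 3.05 in ITD GMP (1.18 ± 0.35, limma adjusted p = 0.0546). Pim2 stood at 3.09, 3.08 and 2.98 FPKM in WT and at 7.35, 3.98 and 4.603 in ITD (0.60 ± 0.18, limma adjusted p = 0.0589). Neither pair of groups overlapped, and both genes passed with a pseudocount of 0.1 (adjusted p = 0.0451 and 0.0484), Socs1 also with a median-ratio size factor (0.0437) and Pim2 without ITD GMP replicate 2 (0.0289). Without ITD GMP replicate 1, which was highest in both genes, Socs1 was at 0.86 (adjusted p = 0.149) and Pim2 at 0.38 (0.130), the smallest values over all settings. Adjusted p reached 0.234 for Socs1 and 0.256 for Pim2. Socs5 was at 0.58 ± 0.20 (0.0882) and Pim1 at 0.01 ± 0.55 (0.995).

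The difference of the Flt3-ITD effect between the populations was tested itself. Of the members it passed for Socs2, at 1.24 ± 0.39 (GMP minus LSK, limma adjusted p = 0.0419), where 13.6% of 12348 genes passed, 6.45% with a higher value in GMP. The 797 genes with a higher and 877 with a lower value became 1243 and 736 with a median-ratio size factor. The value was 0.85 and the call was lost without ITD GMP replicate 1 (adjusted p = 0.0800). Pim2 was at -1.22 ± 0.50 (0.105), at -0.56 without ITD LSK replicate 1 (0.166) and at -1.64 without ITD LSK replicate 3 (0.0317), and at -0.78 without both ITD libraries numbered 1 (0.0317; up to 0.227 over all settings). Cish stood at 0.37 ± 0.57 (0.705). With genotype and replicate number together as a block, Pim1 (1.20, adjusted p = 0.0404, against 0.270 without the block and up to 0.568 in other settings) and Pim2 (-1.22, 0.0370) passed too.

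With floxed Ern1 in the background, the Flt3-ITD comparison called 3 members in each population: Socs2, Cish and Pim2, all higher. In LSK 31.3% of genes were called and 11.7% called higher, and in GMP 13.0% and 8.47%. The LSK comparison sets IRE1_KO_ITD libraries without the 1ng tag against IRE1_KO libraries with it. Tag and Flt3-ITD cannot be told apart there. With quantile normalization 1399 higher and 2340 lower genes became 2070 and 1824 in LSK, and 953 and 506 became 764 and 612 in GMP. In LSK, IRE1_KO stood at 11.9, 10.5 and 7.81 FPKM of Socs2 and IRE1_KO_ITD at 276.5, 283 and 285 (4.69 ± 0.16, limma adjusted p = 1.24e-07). These 3 libraries with both alleles were closer together than any other Flt3-ITD group. Cish went from 11.2, 13.9 and 13.0 to 146, 102 and 150 FPKM (3.27 ± 0.33, limma adjusted p = 5.6e-05), and Pim2 from 13.2, 19.7 and 19.1 to 225, 208 and 261 (3.68 ± 0.43, limma adjusted p = 0.000129). None of the 3 pairs of groups overlapped. Between the same groups the late neutrophil markers stood at 4532 to 11450 and 108 to 380 FPKM, the erythroid and megakaryocyte markers at 551 to 1174 and 39.9 to 43.3, and the B cell markers at 188 to 234 and 30.5 to 36.4, with Pax5 at 0 in IRE1_KO_ITD. Their part in these differences was not tested. Socs1 (0.27 ± 0.21), Socs6 (-0.07 ± 0.09) and Pim1 (-0.30 ± 0.40) did not pass.

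In GMP with floxed Ern1, Socs2 stood at 0.278, 1.24 and 0.786 FPKM without and at 61.1, 83.9 and 79.0 with Flt3-ITD (5.44 ± 0.34, limma adjusted p = 3.26e-05). Cish stood at 1.53, 1.63 and 1.60 FPKM in IRE1_KO and at 23.7, 42.6 and 33.4 in IRE1_KO_ITD (3.69 ± 0.43, limma adjusted p = 0.000648). Pim2 stood at 3.82, 4.11 and 4.64 FPKM and at 8.96, 10.2 and 7.35 (0.92 ± 0.18, limma adjusted p = 0.00971). Each group with Flt3-ITD lay wholly above its control, and these 3 calls were kept in every setting run. As in the comparison with WT, Socs2 entered the GMP fit only through the groups with Flt3-ITD, where it is high.

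**Figure D2:**
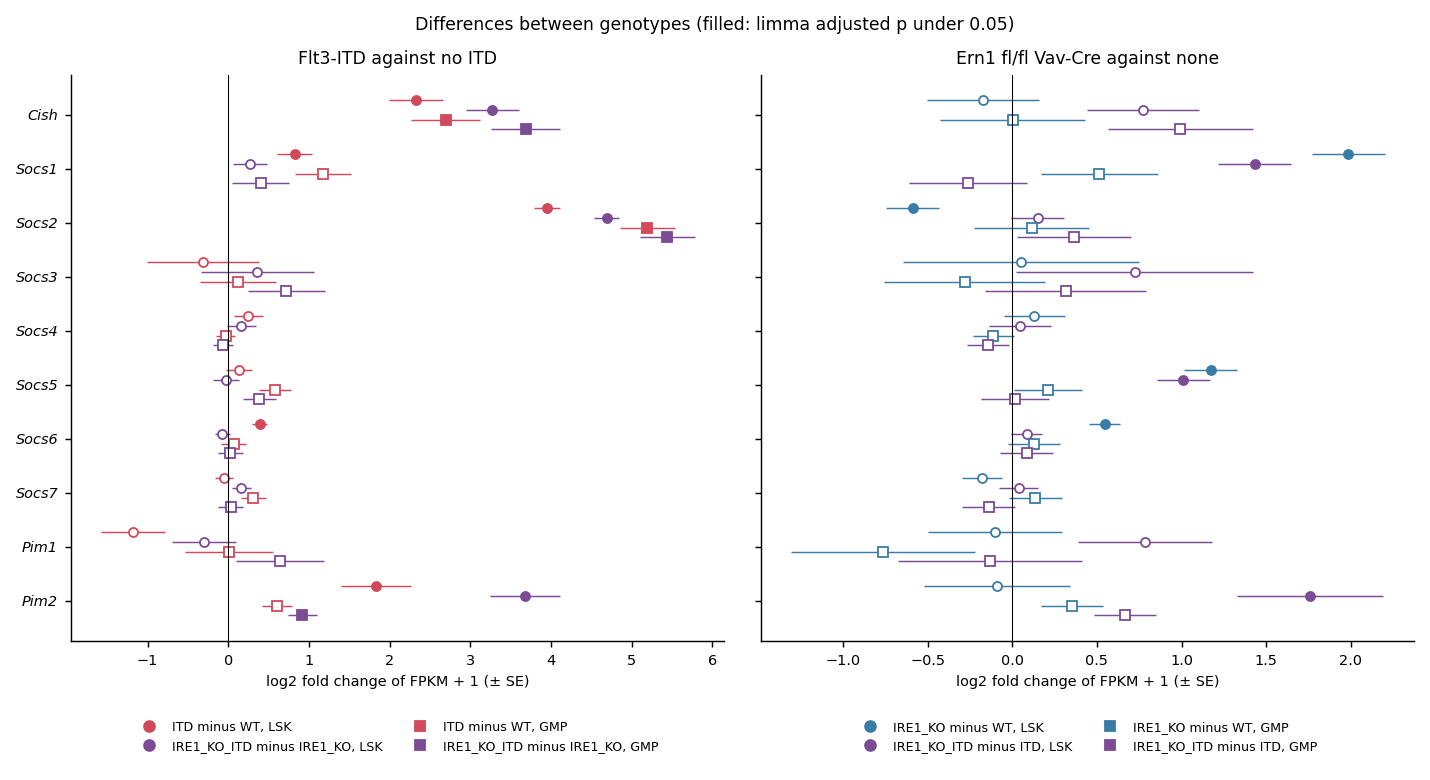
Log2 fold change of FPKM + 1 (x axis, bars show the SE of the limma fit) for each gene (rows), with Flt3-ITD comparisons on the left and comparisons of floxed Ern1 with Vav-Cre on the right, circles for LSK, squares for GMP, and filled symbols where the limma adjusted p was under 0.05. Socs2 and Cish are filled in all 4 comparisons on the left, and Socs1 and Socs5 in both LSK comparisons on the right.

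IRE1_KO LSK were set against WT LSK to describe floxed Ern1 without the Flt3 duplication. Socs1, Socs5 and Socs6 rose and Socs2 fell, 4 of 10 members, where 23.7% of genes were called. The median was -0.019 over the members and 0.139 over all genes. Socs1 stood at 6.86, 10.5 and 8.81 FPKM in IRE1_KO LSK, against 1.27, 2.11 and 1.03 in WT. Every IRE1_KO library was over 3-fold above every WT library (1.99 ± 0.21, limma adjusted p = 6.08e-05). Socs5, known for limiting epidermal growth factor and interleukin signalling, stood at 8.71, 7.43 and 8.77 FPKM, against 2.68, 3.82 and 2.95 in WT (1.17 ± 0.16, limma adjusted p = 0.000247). Both genes kept their calls in all settings run.

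The smaller differences were less stable. Socs6 stood at 11.5, 10.9 and 11.6 FPKM in IRE1_KO LSK (0.55 ± 0.09, limma adjusted p = 0.00101), and quantile normalization took the value to 0.23 and ended the call (adjusted p = 0.0606). Socs2 fell from 13.0, 18.4 and 15.5 FPKM to 11.9, 10.5 and 7.81 (-0.59 ± 0.16, limma adjusted p = 0.0194). That call was lost without IRE1_KO LSK replicate 3 (adjusted p = 0.0683) or WT LSK replicate 2 (0.0853), and the lowest p over all settings was 0.00286. Of all genes called in this comparison, 2506 were higher and 325 lower, 1531 and 854 with a median-ratio size factor and 1408 and 1166 with quantile normalization, so part of the excess of higher genes moves with the scaling. The 1ng tag is on all libraries of this group and on no other, so tag and genotype cannot be told apart in it. Mir6236, a short gene with very high values, stood at 3536 ± 2246 FPKM in this group and at group means of 22300 to 35270 in the 7 others, and what this has to do with the member differences was not tested.

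IRE1_KO_ITD LSK against ITD LSK carries no such tag. There Socs1, Socs5 and Pim2 rose, 3 of 10 members, where 20.2% of genes were called and 13.3% called higher. Socs1 stood at 10.1, 8.23 and 14.3 FPKM in IRE1_KO_ITD, against 3.42, 3.52 and 2.98 in ITD (1.43 ± 0.21, limma adjusted p = 0.00238). Socs5 stood at 8.02, 6.96 and 9.50 FPKM, against 4.44, 3.004 and 3.23 (1.01 ± 0.16, limma adjusted p = 0.00277). For both genes the groups did not overlap, and the calls were kept in all settings. The 2 LSK groups with floxed Ern1 overlapped each other in Socs1 and in Socs5.

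Pim2 stood at 225, 208 and 261 FPKM in IRE1_KO_ITD LSK, above all 3 ITD libraries at 170, 47.6 and 37.1. It rose by 1.76 ± 0.43 (limma adjusted p = 0.0173). Without ITD LSK replicate 1 the difference was 2.42 (adjusted p = 2.7e-05), whereas the call was lost without ITD LSK replicate 2 (0.0653) or 3 (0.0575) or IRE1_KO_ITD LSK replicate 3 (0.0616), the highest over all settings being 0.0653. Cish was at 0.77 ± 0.33 (limma adjusted p = 0.126), and at 1.23 without ITD LSK replicate 1 (0.00349, the highest over all settings being 0.350). That library alone reached the level of IRE1_KO_ITD in Cish, at 144 FPKM against 102 to 150. Socs2 differed by 0.15 ± 0.16 (limma adjusted p = 0.548). The monocyte and dendritic markers, at 391 to 2732 FPKM in ITD LSK, summed to 73.4 to 132 in IRE1_KO_ITD LSK with Siglech at 0, and their part in the result was not tested.

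In GMP no member was called for floxed Ern1. Against WT, 0 members of IRE1_KO passed in limma, 0 had an unadjusted p under 0.05, and 0.533% of genes were called. Socs1 stood at 1.58, 2.13 and 3.48 FPKM in IRE1_KO GMP (0.52 ± 0.35, limma adjusted p = 0.559), and Socs5 at 0.822, 1.11 and 0.827, against 0.640, 0.680 and 0.657 in WT (0.21 ± 0.20, 0.688). Socs2 and Socs5 entered the GMP fit only through groups with Flt3-ITD, and neither was tested with the WT and IRE1_KO libraries alone. Against ITD, 0 members of IRE1_KO_ITD passed in limma and 2, Pim2 and Cish, had an unadjusted p under 0.05, with 1.83% of genes called, 103 in each direction, but under median-ratio scaling 80 were higher and 161 lower. Cish was at 0.99 ± 0.43 (limma adjusted p = 0.252) and Pim2 at 0.67 ± 0.18 (0.0965). Without ITD GMP replicate 1 both passed, Cish at 1.62 (adjusted p = 0.00451) and Pim2 at 0.89 (0.00840), while other settings gave adjusted p up to 0.552 and 0.316.

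Whether floxed Ern1 went with a different size in GMP than in LSK was tested as a difference of effects, in comparisons added after the LSK values were seen. The comparison of IRE1_KO against WT uses the LSK libraries with the 1ng tag. For IRE1_KO against WT, Socs5 passed (-0.96 ± 0.26, GMP minus LSK, limma adjusted p = 0.0377), where 5.11% of genes did and 4.12% in this direction (122 higher and 509 lower, but 310 and 411 with quantile normalization), and Socs1 did not (-1.47 ± 0.43, 0.0528), although it did without IRE1_KO GMP replicate 3 (-1.69, 0.0367). For IRE1_KO_ITD against ITD, Socs1 (-1.70 ± 0.43, limma adjusted p = 0.0320) and Socs5 (-0.99 ± 0.26, 0.0340) passed, where 6.34% of genes did and 3.54% in this direction (346 higher and 437 lower, but 198 and 588 with a median-ratio size factor). Pim2 was at -1.09 ± 0.50 (0.189), and at -1.76 without ITD LSK replicate 1 (0.000757). These calls lay close to the threshold: Socs5 lost its first call in 16 of 20 settings and its second in 13 of 21, and Socs1 lost its call in 11 of 21.

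The Flt3-ITD effect with floxed Ern1 was also set against the effect without it. In LSK this uses the IRE1_KO libraries with the 1ng tag. In LSK 0 members passed in limma, 3 had an unadjusted p under 0.05, and 6.94% of genes were called, 163 higher and 667 lower, but 215 and 314 with a median-ratio size factor. Pim2 was at 1.85 ± 0.61 (limma adjusted p = 0.0925), Socs2 at 0.74 ± 0.22 (0.0719) and Socs6 at -0.46 ± 0.13 (0.0537). Without ITD LSK replicate 1, 4 members passed: Pim2 (2.51, adjusted p = 0.000298), Cish (1.40, 0.0120), Socs2 (0.85, 0.0354) and Socs6 (-0.48, 0.0448). Socs2 also passed without WT LSK replicate 1 (0.86, 0.0468). In other settings adjusted p went up to 0.207, 0.438, 0.324 and 0.146 for these 4 genes. In GMP 0 of 11249 genes and 0 members passed in limma (0% called), and 0 members had an unadjusted p under 0.05. Cish alone passed without ITD GMP replicate 1 (1.61, adjusted p = 0.0455, up to 0.829 in other settings).

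Socs3, the feedback inhibitor of gp130 receptors, followed the replicate number and not the genotype in LSK. LSK libraries held 14.3, 45.3 and 45.4 FPKM in WT, at 11.2, 34.7 and 38.4 in ITD, at 11.3, 57.2 and 50.3 in IRE1_KO and at 22.4, 68.7 and 46.2 in IRE1_KO_ITD. In each of the 4 genotypes replicate 1 was lowest, between 11.2 and 22.4 FPKM, and the 8 other LSK libraries lay between 34.7 and 68.7. Fos, an immediate early transcription factor, split the same way: 339 to 1046 FPKM in the replicates numbered 1 and 1242 to 3573 in the others. In GMP, Socs3 and Fos were lowest together in replicate 1 of WT, ITD and IRE1_KO and in replicate 3 of IRE1_KO_ITD, where Socs3 was at 1.98, 2.76, 0.966 and 2.83 FPKM. No comparison between genotypes called Socs3 in limma, except IRE1_KO_ITD against ITD in LSK with the replicate number as a block (0.72, adjusted p = 0.0277, up to 0.894 in other settings). The labels do not say what the number stands for, and its part in these levels was not tested.

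**Figure D3:**
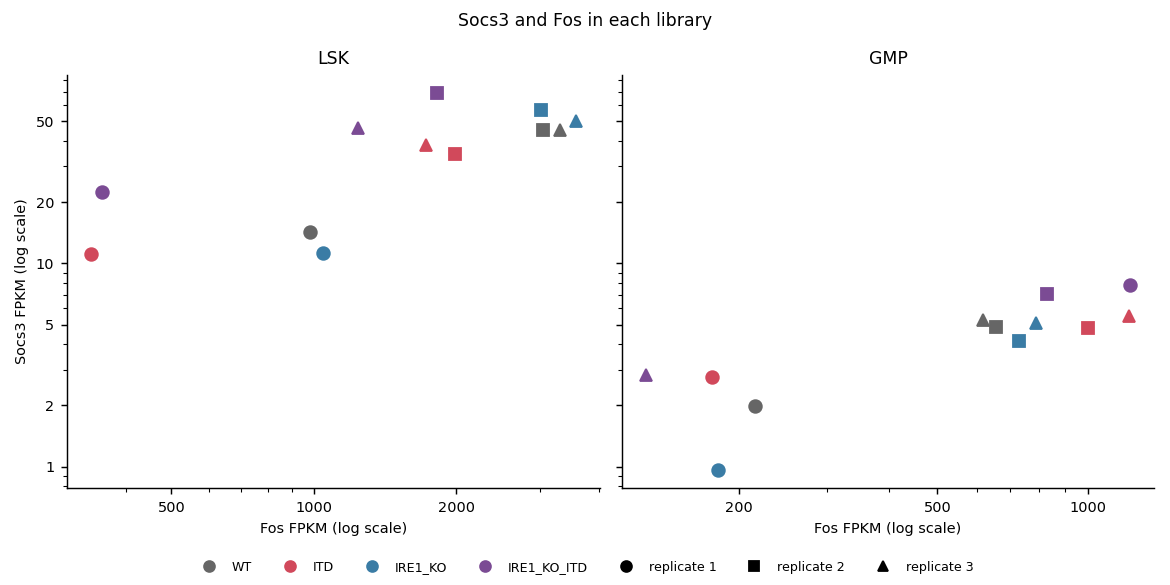
Socs3 against Fos, both in FPKM on log axes, in each LSK library (left) and GMP library (right), with colour for the genotype and symbol for the replicate number. The 4 LSK libraries numbered 1 (circles) lie at the lower left, at 11.2 to 22.4 FPKM of Socs3, in every genotype, and in GMP a group of 4 libraries does so.

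Pim1 and Pim3 shared part of this split. Pim3, the third PIM kinase, was lowest in replicate 1 in all 4 LSK groups, and Pim1 in 3 of 4, the exception being ITD LSK, where all 3 libraries lay between 14.0 and 14.9 FPKM. In GMP replicate 1 was lowest in 3 of 4 groups for both genes. The exception was ITD GMP, where replicate 1 was highest in both, whereas for Socs3 and Fos the exception was IRE1_KO_ITD GMP. In GMP, Pim1 stood at 9.34, 21.4 and 51.1 FPKM in WT, 33.7, 17.6 and 18.1 in ITD, 6.69, 13.6 and 20.9 in IRE1_KO and 15.1, 23.4 and 22.9 in IRE1_KO_ITD. The 4 GMP groups overlapped in Pim1, and no genotype comparison in GMP passed. With all libraries numbered 1 left out, Pim1 in ITD LSK against WT LSK was at -1.60 (limma adjusted p = 0.00342), in a setting chosen after the split was seen.

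Socs4, Socs6 and Socs7 varied less than the other members over all 24 libraries. Socs4 ran from 2.71 to 5.26 FPKM, Socs6 from 7.20 to 13.2 and Socs7 from 0.626 to 1.48. Their group means spanned 0.377, 0.547 and 0.309 log2 units, against 7.47 for Socs2, 5.84 for Pim2 and 5.67 for Cish. In Socs4 and in Socs7 each group overlapped the next in order of the mean, so no order of the 8 groups can be read from these 2 genes. Socs6 was not flat: its WT LSK libraries, at 7.20 to 7.95 FPKM, lay below those of every other group. In Socs2 the order had gaps: WT and IRE1_KO GMP overlapped at the bottom, then IRE1_KO LSK, WT LSK, the 2 GMP groups with Flt3-ITD, and the 2 LSK groups with Flt3-ITD, each step without overlap. In Pim2 the 2 LSK groups with Flt3-ITD were also apart from each other, ITD at 37.1 to 170 and IRE1_KO_ITD at 208 to 261 FPKM.

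In these libraries the make-up of the SOCS family differed between groups with and without Flt3-ITD. That of the PIM family did so in LSK and, for the share of Pim3 with floxed Ern1, in GMP. The 8 SOCS genes summed to 81.8 ± 24.7 FPKM in WT LSK and 390.5 ± 70.45 in ITD LSK, and to 23.7 ± 2.45 in WT GMP and 108 ± 50.2 in ITD GMP (SD, n = 3). Socs2 made up 19.8% ± 3.83 of that sum in WT LSK and 65.7% ± 3.11 in ITD LSK, and 2.55% ± 1.47 in WT GMP and 56.5% ± 4.82 in ITD GMP. With floxed Ern1 its share was 11.5% ± 5.65 and 56.9% ± 1.89 in LSK without and with Flt3-ITD, and 2.94% ± 1.63 and 55.3% ± 0.845 in GMP. Socs6 led both GMP groups without Flt3-ITD, at 42.3% ± 7.64 in WT and 43.8% ± 9.14 in IRE1_KO. Among the 3 PIM genes, Pim2 made up 29.1% ± 8.75 of the sum in WT LSK, 72.1% ± 15.9 in ITD LSK (90.1%, 66.4% and 59.8% in replicates 1 to 3) and 82.9% ± 3.41 in IRE1_KO_ITD LSK. In GMP its share was 9.11% ± 5.23 in WT and 11.6% ± 0.673 in ITD, and libraries of WT and ITD overlapped in the shares of all 3 PIM genes. With floxed Ern1, the share of Pim3 in GMP was 47.5% ± 1.61 without and 32.7% ± 1.63 with Flt3-ITD. Shares were not tested.

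**Figure D4:**
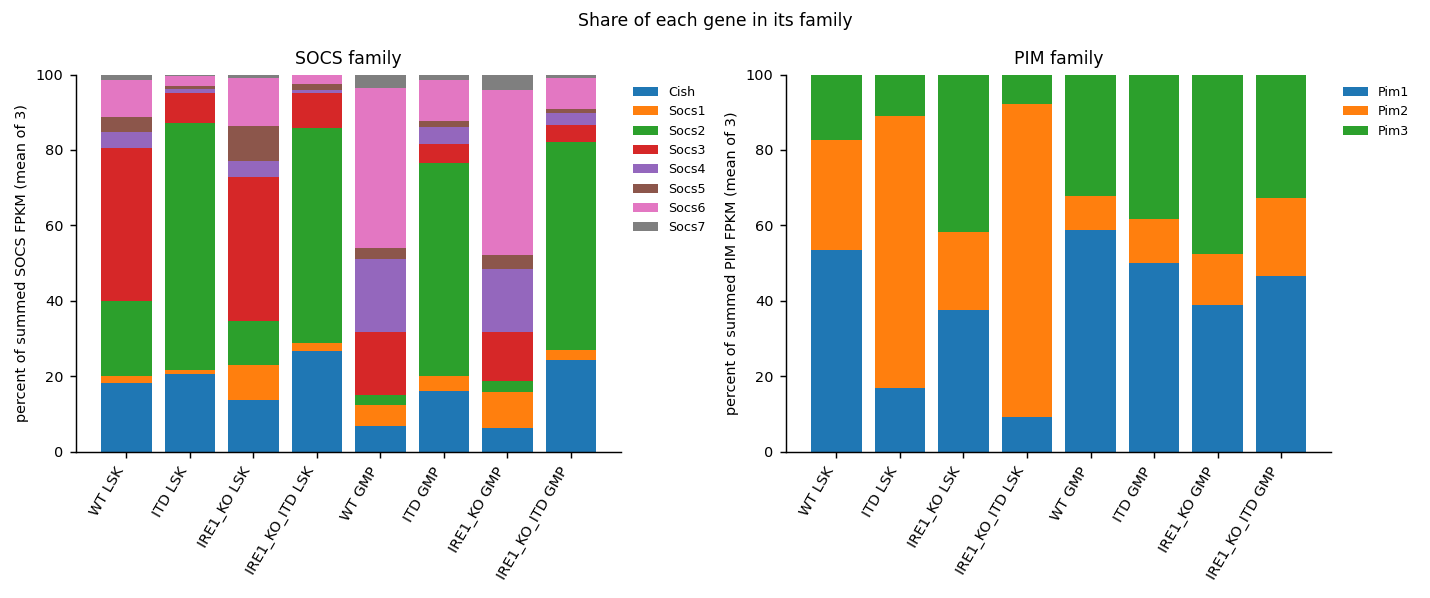
Mean share of each gene (percent, n = 3 libraries, stacked to 100) in the summed FPKM of the 8 SOCS genes (left) and the 3 PIM genes (right) in each of the 8 groups. Socs2 takes over 50% in the 4 groups with Flt3-ITD, and Pim2 has the largest mean share in the 2 LSK groups with Flt3-ITD, where it was 90.1%, 66.4% and 59.8% in ITD LSK replicates 1 to 3.

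Other genes of the pathway were counted from lists of 85 genes. In ITD LSK against WT, where 14.9% of all genes were called higher and 22.2% in all, 3 of 23 tested receptors rose and 7 fell. Csf2rb, the shared beta chain of the IL-3 and GM-CSF receptors, rose from 14.0 ± 0.786 to 26.9 ± 0.940 FPKM (0.89 ± 0.10, limma adjusted p = 0.000361). Flt3 itself (-1.41 ± 0.09) and Igf1r (-0.86 ± 0.11) fell. None of 4 Janus kinases and none of 7 STAT genes passed: Jak2 was at -0.25 ± 0.16, Stat5a at -0.06 ± 0.13 and Stat5b at -0.34 ± 0.14 (limma adjusted p = 0.288, 0.768 and 0.0997). Of 15 other textbook STAT5 targets, 4 rose and 1 fell, with a median of 0.150 against 0.084 over all genes. The survival gene Bcl2 rose from 13.1 ± 1.81 to 34.9 ± 5.91 FPKM (1.34 ± 0.21, limma adjusted p = 0.00228) and Bcl2l1, which encodes BCL-XL, by 0.61 ± 0.13 (0.00933). Cyclin D1 (Ccnd1) fell (-1.61 ± 0.31, 0.00604), and Pim3 was at -0.50 ± 0.46 (0.467). Of 6 partners of the SOCS box ligase only Cul2 rose (0.58 ± 0.10), of 13 other negative regulators none passed, and of 7 PIM substrates Eif4b rose (0.44 ± 0.09) and Cdkn1b fell (-0.63 ± 0.16).

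In ITD GMP, where 7.37% of all genes were called higher and 10.7% in all, 6 of 23 receptors rose and 3 fell. Il6st, which encodes the gp130 chain that SOCS3 binds, rose by 1.58 ± 0.20, and the erythropoietin receptor Epor (-1.22 ± 0.14) and Ifngr1 (-0.81 ± 0.12) fell, with limma adjusted p = 0.00298 or lower. Stat5b rose by 0.48 ± 0.13 and Stat4 fell (-0.65 ± 0.18), with 7 STAT genes tested, while Stat5a (0.28 ± 0.15), Jak2 (0.50 ± 0.22) and Flt3 (1.04 ± 0.45) did not pass. Flt3 stood at 32.7, 14.8 and 13.5 FPKM in ITD GMP, with replicate 1 highest. Bcl2 (1.29 ± 0.24) and Ccnd2 (0.83 ± 0.21) rose among 14 STAT5 targets, and Pim3 was at 0.49 ± 0.28. Cblb (0.48 ± 0.13) rose among 13 negative regulators and Rnf7 fell (-0.24 ± 0.07) among 6 ligase partners. None of the 7 PIM substrates passed.

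The same lists were read for floxed Ern1, and genes named in them other than Jak2, Pim3, Stat5a, Stat5b, Flt3 and Bcl2 were chosen after their values were seen. In IRE1_KO LSK, 23.7% of all genes were called, 2506 higher and 325 lower, so counts of risen genes in short lists are read against many risen genes. There 3 of 4 Janus kinases rose: Jak1 (0.73 ± 0.11), Jak2 (0.99 ± 0.16) and Jak3 (0.54 ± 0.17), with limma adjusted p = 0.047 or lower. Pim3 rose from 11.3 ± 3.44 to 38.2 ± 16.2 FPKM (1.60 ± 0.46, limma adjusted p = 0.0271). Of 15 other STAT5 targets 5 rose and 0 fell: Nfil3 (1.48 ± 0.29), Mcl1 (1.37 ± 0.39), Bcl2 (0.81 ± 0.21), Ccnd3 (0.50 ± 0.10) and Pim3. Flt3 rose by 0.41 ± 0.09, and Stat5a (0.16 ± 0.13) and Stat5b (0.39 ± 0.14) did not pass. In IRE1_KO_ITD LSK against ITD LSK, Jak2 (-0.07 ± 0.16) and Pim3 (1.36 ± 0.46, limma adjusted p = 0.0610) did not pass, and Flt3 rose by 0.34 ± 0.09 and Jak1 by 0.66 ± 0.11. Of the 15 targets 2 rose there, Il2ra (2.10 ± 0.43) and Ccnd3 (0.57 ± 0.10), and 3 fell, Ccnd2, Bcl6 and Ccnd1. Of all genes 20.2% were called in this comparison and 13.3% called higher. In IRE1_KO GMP none of Jak2 (0.22 ± 0.22), Stat5a (0.41 ± 0.15), Stat5b (0.42 ± 0.13), Pim3 (0.36 ± 0.28) and Flt3 (-0.04 ± 0.45) passed in limma.

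Genes with the most similar pattern were ranked by Pearson r of log2(FPKM + 1) over the 24 libraries, which share genotype and population, so r describes likeness only. For Cish these were Clnk, an adaptor of immune receptors (r = 0.986), Serpina3f (0.977) and Lrp12 (0.975). For Socs2 they were the interferon-inducible Ifitm1 (0.984), Cish (0.964) and Cox4i2 (0.958), and for Pim2 Il18r1, a chain of the interleukin 18 receptor (0.981), D630039A03Rik (0.973) and Hspa12b (0.972). Socs3 was most like Lif, a cytokine of the IL-6 family (0.953), Rasd1 (0.948) and Plek (0.942). Socs1 was nearest to Kdm4b (0.941), Pcgf6 (0.933) and Fam53a (0.932), and Socs5 to Camk2d (0.985), Dnmt3b (0.977) and Cacnb1 (0.970). Kdm4b stood at 3.14 ± 0.0932 FPKM in WT LSK and 10.1 ± 1.49 in IRE1_KO LSK. Pim1 had no close neighbour, with Btbd9 (0.724), Gm7334 (0.708) and Zbtb10 (0.669) at the top.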

How the data were processed

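The submitters' processing notes name STAR, Cufflinks and mm10, without versions. Each library has its own table of FPKM values deposited by the authors, 1 for each gene symbol. The kit is not settled: the protocol names SMART-Seq v4 with Nextera XT, the series text stranded TruSeq. limma 3.58.1 (R 4.3.3, moderated test, mean-variance trend) was run on log2(FPKM + 1). A fit held all 12 libraries of a population, or all 24 where populations were compared. It covered genes that reached 1 FPKM in 3 or more of its libraries, all 10 members among them, and Benjamini-Hochberg adjustment ran over all genes of each comparison (threshold 0.05). In the GMP fit, Socs2 and Socs5 met this only through the groups with Flt3-ITD.

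The members and lists were chosen with earlier results of these data known. Named genes are the members, Pim3, Jak2, Stat5a, Stat5b and Flt3, up to 3 called genes of each list with the smallest p in ITD against WT, and the 3 genes most like each member whose group means span at least 1 log2 unit. Of 61 marker genes 60 were found. The settings tried were quantile or median-ratio scaling, a pseudocount of 0.1, all genes unfiltered, a replicate block, a sex covariate, fits of the compared libraries alone, and each library left out. Leaving out all libraries numbered 1, or both ITD libraries numbered 1, was added after seeing the data. Deviations of same-numbered libraries correlated at -0.338 to 0.103 between genotypes and -0.1 to 0.236 between populations, and numbers were not used as pairs between genotypes. LSK and GMP libraries of the same number matched in sex in 9 of 9 cases in WT, ITD and IRE1_KO and in 1 of 3 in IRE1_KO_ITD. Their correlations were 0.044 to 0.236 in the former and 0.105 to 0.198 in ITD, where every one passed 0.1, the limit for a pair; with the replicate block GMP against LSK in ITD kept all its member calls. Depth is known only in relative terms, from steps in low FPKM values, so no count model was used. The fit was tested on simulated data with known changes. Python 3.11.15 was used for tables (pandas 2.3.3, numpy 2.4.6) and figures (matplotlib 3.10.9).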

Additional observations from a re-analysis of the deposited data

Results flagged for a closer look

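Socs2 differed in its Flt3-ITD effect between the populations, by 1.24 ± 0.39 log2 units more in GMP than in LSK (limma adjusted p = 0.0419). WT GMP were under 1 FPKM, so the size depends on the pseudocount, and it reached 2.46 with a pseudocount of 0.1. The call was lost in 10 of 21 settings (adjusted p up to 0.108), among them leaving out ITD GMP replicate 1, WT GMP replicate 1 or 3, WT LSK replicate 2 or 3, or ITD LSK replicate 2 or 3.

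Socs5 and Socs1 differed between the populations with floxed Ern1, in comparisons added after the LSK values were seen. Socs5 was at -0.96 (GMP minus LSK) for IRE1_KO against WT, a call lost in 16 of 20 settings (adjusted p up to 0.157) and without any 1 of the WT or IRE1_KO libraries except WT LSK replicate 2. Socs5 was at -0.99 for IRE1_KO_ITD against ITD, lost in 13 of 21 settings (up to 0.145), and Socs1 at -1.70, lost in 11 of 21 (up to 0.158). Leaving out IRE1_KO_ITD GMP replicate 1 or 2, ITD GMP replicate 1, ITD LSK replicate 2 or 3, or IRE1_KO_ITD LSK replicate 1 or 3 ended both calls, and leaving out ITD GMP replicate 3 ended that of Socs5. All 4 values kept their sign in all settings run. Groups of 3 libraries are too small for a test of single outlying libraries.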

How the results depend on the processing

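Of 170 differences of a member in a comparison, 49 passed, and 36 of these passed in every setting run. Of 2686 alternative values, 92 lost and 48 gained a call, and 0 reversed a called difference. Counts of members or genes called in limma that moved by more than 1.5 times follow. The cause was not tested, except that fewer libraries leave fewer degrees of freedom.

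ITD against WT in LSK called 1384 genes and 3 members with sex as a covariate and 1689 genes in a fit of the compared libraries alone; leaving out 1 library gave 3 to 6 members and 1282 (without WT LSK replicate 2) to 2599 genes. In GMP it called 271 genes with sex, 509 with the compared libraries alone, 551 with all libraries numbered 1 left out, 4 members with a pseudocount of 0.1, and 384 (without WT GMP replicate 3) to 1609 genes without 1 library. IRE1_KO against WT in GMP called 39 genes with sex, 21 without the libraries numbered 1, 95 with a median-ratio size factor and 27 to 45 without 1 library. IRE1_KO_ITD against ITD in LSK called 5 members without the libraries numbered 1, and 1177 (without IRE1_KO_ITD LSK replicate 3) to 2342 genes without 1 library. In GMP it called 15 genes with sex, 12 with the compared libraries alone, 130 with a pseudocount of 0.1, 1 member without the libraries numbered 1, and 13 (without ITD GMP replicate 3) to 759 genes (without ITD GMP replicate 1) and 0 to 2 members without 1 library. IRE1_KO_ITD against IRE1_KO in GMP called 897 genes without the libraries numbered 1 and 708 to 1176 without 1 library.

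The difference of the Flt3-ITD effect with and without floxed Ern1 in LSK called 82 genes with sex, 542 genes and 1 member without a filter, 529 genes with a median-ratio size factor, 1 member with quantile normalization, 3 members without the libraries numbered 1, and 343 to 1549 genes and 0 to 4 members without 1 library, the upper values without ITD LSK replicate 1. In GMP it called 8 genes without the libraries numbered 1, and 0 to 91 genes and 0 to 1 members without 1 library, the upper values without ITD GMP replicate 1.

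Between the populations, the compared libraries alone gave 2582 genes for GMP against LSK in ITD, 908 genes and 0 members for the Flt3-ITD effect, 1058 genes and 2 members for the IRE1_KO effect, and 3 genes and 0 members for IRE1_KO_ITD against ITD. The Flt3-ITD effect called 0 members without a filter, 2 without the libraries numbered 1, 2 without both ITD libraries numbered 1, and 791 to 1849 genes and 0 to 1 members without 1 library. The IRE1_KO effect called 2 members with sex, 0 each without a filter, with a pseudocount of 0.1 and with a median-ratio size factor, and 252 to 609 genes and 0 to 1 members without 1 library. IRE1_KO_ITD against ITD called 316 genes and 0 members without a filter, 1 member each with quantile normalization and a pseudocount of 0.1, 313 genes and 1 member without the libraries numbered 1, and 29 to 1595 genes and 0 to 3 members without 1 library (29 without IRE1_KO_ITD GMP replicate 1 and 1595 without IRE1_KO_ITD GMP replicate 3).

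Between genotypes no set of same-numbered libraries met the rule for pairs, although Socs3, Fos and Pim3 were lowest in all 4 LSK libraries numbered 1. With the replicate number (in fits of both populations, genotype and number together) as a block, 783 genes were called for ITD against WT, 35 for IRE1_KO against WT and 62 for IRE1_KO_ITD against ITD in GMP, 3 members for the Flt3-ITD effect between the populations and 2 for the IRE1_KO effect. Higher and lower calls in ITD against WT in LSK were 1781 and 869, but 1106 and 1309 with a median-ratio size factor and 1251 and 1116 with quantile normalization, where the median of all genes moved from 0.084 to -0.027 and 0.014. Depth limits the low values, of which Socs2 in GMP without Flt3-ITD, Socs5 in GMP and Socs7 lay near or under 1 FPKM.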
